A study of Mus musculus with 6 samples.

Results

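The cyclin-dependent kinase inhibitors and pocket proteins studied here are the genes Cdkn1a, Cdkn1b, Cdkn2a, Cdkn2b, Cdkn2c, Cdkn2d, Rb1, Rbl1 and Rbl2, chosen by symbol: 9 of 18194 genes measured, with 16 of 45101 probe sets on the array. A probe set was taken as a member when the platform annotation gave it exactly 1 of these symbols, and each gene was represented by its probe set with the highest mean over the 6 arrays; the other 7 probe sets are described beside it. RNA of sorted adult mouse bone marrow cells was measured on Affymetrix arrays in 3 groups of 2 arrays. E2A-KO LMPP were lineage-negative, SCA1+ KIT+ cells with high surface FLT3, known as lymphoid-primed multipotent progenitors, from E2A knockout mice on a C57BL/6 background; WT LMPP were cells of the same gate from wild-type C57BL/6 mice. WT LSK FLT3- were lineage-negative, SCA1+ KIT+ cells without surface FLT3 from wild-type C57BL/6 mice, the gate that holds the hematopoietic stem cells. Exact ages and the number of mice behind an array are not given. Because the labels name no separate animals or sorting runs within a group, each p-value reflects array-to-array spread alone, and that spread may be technical. A free-text label names all 6 samples as wild-type LMPP; it was set aside because titles and source names separate the groups.

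The inhibitors fall into families that act at different points of G1. Ink4 proteins, encoded by Cdkn2a to Cdkn2d, bind CDK4 and CDK6 and keep them from cyclin D, whereas Cip/Kip proteins, encoded by Cdkn1a, Cdkn1b and Cdkn1c, act on cyclin E and cyclin A complexes of CDK2. The kinases phosphorylate the pocket proteins RB (Rb1), p107 (Rbl1) and p130 (Rbl2), which otherwise hold E2F transcription factors in check, and p130 and p107 also form the DREAM complex with MuvB proteins. In the marrow these genes are known for holding stem cells in quiescence, and E2A is known to activate Cdkn1a in several cell types.

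The 2 E2A-KO arrays and the 2 WT LMPP arrays had array medians of 4.01 to 4.04 (log2 RMA value) and upper quartiles of 5.78 to 5.82, while the WT LSK FLT3- arrays had medians of 3.90 and 3.91 and upper quartiles of 6.13 and 6.15. The value distribution thus differed by cell fraction, and the differences of the 9 genes between WT LMPP and WT LSK FLT3- below are given with the median difference of genes of like level and with the value after quantile normalization of the 6 arrays. Of 8 measured stem cell marker genes, 8 were lower in WT LMPP than in WT LSK FLT3-, and of 7 LMPP marker genes 7 were higher, by limma with adjusted p under 0.05. Of all genes 23.7% were lower and 10.4% higher there. In E2A-KO LMPP against WT LMPP 5 of the 7 LMPP markers were lower and 0 higher, where 0.995% of all genes were lower. The LMPP markers summed to 12.58 to 12.64 (log2) in E2A-KO LMPP and 13.69 to 13.70 in WT LMPP. The targeted gene Tcf3, which encodes the E2A proteins, read 6.80 and 6.53 in E2A-KO LMPP, against 6.93 and 6.86 in WT LMPP (limma, difference -0.23, adjusted p = 0.50). The sources used here do not place its probes relative to the deletion, so Tcf3 checks no label. The summed level of 7 mature neutrophil marker genes was 9.10 to 9.29 (log2) in E2A-KO LMPP, 11.52 in both WT LMPP arrays and 10.64 to 10.75 in WT LSK FLT3-. All 7 were lower in E2A-KO than in WT LMPP by limma, and 2 of them lay below the array median in E2A-KO LMPP and 0 in the other groups. The part of these cells in the results below was not tested, and in sorted bulk RNA fewer cells of a type and less RNA per cell cannot be told apart.

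**Figure D1:**
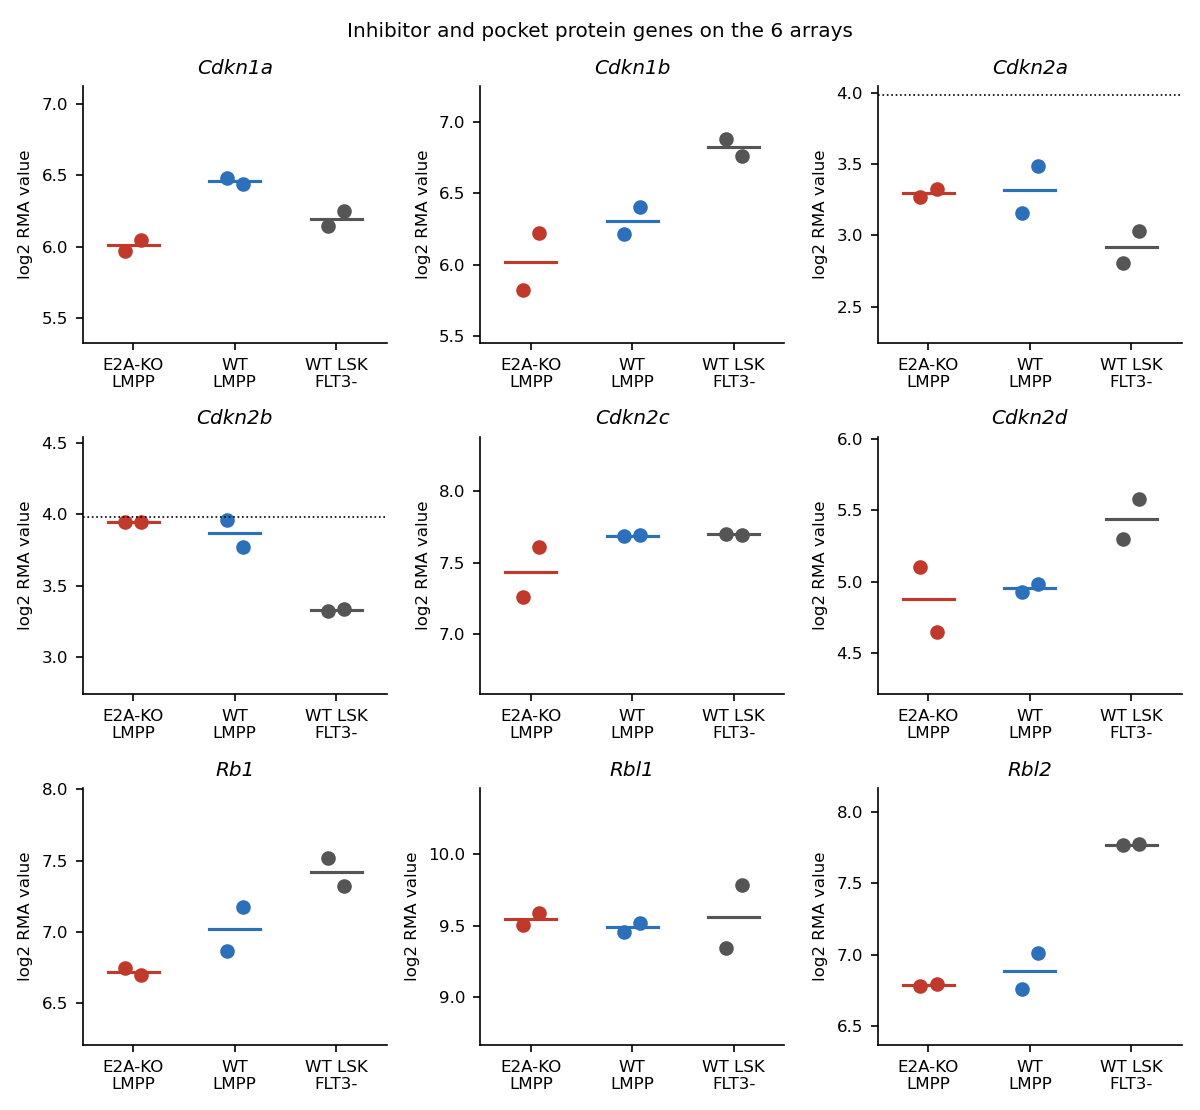
Log2 RMA value of each of the 9 genes on each of the 6 arrays, with E2A-KO LMPP in red, WT LMPP in blue and WT LSK FLT3- in grey. Points are arrays, horizontal lines are group means of 2 arrays, every panel spans the same log2 range, and the dotted line in the Cdkn2a and Cdkn2b panels is the mean of the 6 array medians. Rbl2 and Cdkn1b stand highest on the WT LSK FLT3- arrays, and Cdkn1a stands highest on the WT LMPP arrays.

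Loss of E2A left the 9 genes without a call. By limma with Benjamini-Hochberg adjustment over 18194 genes, 0 of 9 passed an adjusted p under 0.05 in E2A-KO LMPP against WT LMPP, where 1.37% of all genes passed; at an unadjusted p under 0.05 it was 1 of 9, Cdkn1a, where 14.6% of all genes stood. The arrays of the genotypes did not overlap for 3 of 9 genes, Cdkn1a, Cdkn2c and Rb1, all lower in E2A-KO, a share close to the 41.6% of all genes, of which 18.8% were higher and 22.8% lower. Of the 9 differences 7 were below 0, with a median of -0.10 against -0.02 over all genes.

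Cdkn1a, which encodes p21, the inhibitor induced by p53, read 5.97 and 6.05 (log2) in E2A-KO LMPP, 6.48 and 6.44 in WT LMPP, and 6.15 and 6.25 in WT LSK FLT3-. Both E2A-KO arrays lay below all 4 others, and both WT LMPP arrays lay above. The mean was 6.01 ± 0.05 in E2A-KO LMPP and 6.46 ± 0.03 in WT LMPP (SD, n = 2 arrays each). The difference of -0.45 (SE 0.13, 95% interval -0.74 to -0.16), a level 1.37-fold lower in E2A-KO LMPP, did not pass the test (limma, adjusted p = 0.145). Over 15 alternatives limma's adjusted p was 0.0881 to 0.568. The highest of these, with a difference of -0.21, came from averaging both Cdkn1a probe sets. The other Cdkn1a probe set read 4.54 and 4.98 in E2A-KO LMPP, 4.43 and 5.03 in WT LMPP and 4.58 and 4.87 in WT LSK FLT3-, so its arrays overlapped in every comparison and its replicates lay farther apart than those of the brighter probe set. The difference between genotypes therefore rests on 1 of the 2 probe sets of Cdkn1a.

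The reference sequence before the Cdkn1a start is shown because E2A proteins are known to bind E boxes. The table gives 2 starts for the gene on GRCm38.p6; 1 of the 6-base E boxes searched, CACCTG or its reverse complement, was found before the downstream start, in the window chr17:29093519-29093768 on the plus strand. Capitals mark the match, whose first base lies 187 bases before the start. The letters CACCTG are in 17.2% of 32851 promoter windows of this length, and CAGCTG, the other E box searched, in 13%. The motifs were chosen after values were seen, and a match is a description of the sequence only.
Cdkn1a: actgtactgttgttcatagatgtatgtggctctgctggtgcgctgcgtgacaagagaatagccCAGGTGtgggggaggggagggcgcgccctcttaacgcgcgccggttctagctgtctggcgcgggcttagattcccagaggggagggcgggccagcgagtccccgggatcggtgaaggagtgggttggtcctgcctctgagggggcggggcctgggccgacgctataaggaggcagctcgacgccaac

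Between the stages, the call of Cdkn1a depended on the scale. In WT LMPP against WT LSK FLT3- it differed by 0.26 (95% interval -0.03 to 0.55; limma, adjusted p = 0.140), while the median of 1063 genes of like level (within 0.25 log2 of its mean) was -0.41. Of those genes 5.83% were called higher and 44.8% lower. After quantile normalization Cdkn1a read 6.62 and 6.54 in WT LMPP, against 5.93 and 6.00 in WT LSK FLT3-. The difference was 0.62 (95% interval 0.34 to 0.90, limma, adjusted p = 0.0112), so on that scale the brighter Cdkn1a probe set rose. Cyclic loess normalization, chosen after seeing the data, gave 0.58 (limma, adjusted p = 0.0124). The other Cdkn1a probe set did not pass after quantile normalization. Its difference was 0.05 (95% interval -0.50 to 0.59, limma over all probe sets, adjusted p = 0.926). E2A-KO LMPP differed from WT LSK FLT3- by -0.19 on the deposited scale and by 0.19 after quantile normalization (limma, adjusted p = 0.266 and 0.323), so that comparison had no settled direction.

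Cdkn1b, which encodes p27, the inhibitor degraded through SKP2 when cells enter S phase, read 5.82 and 6.22 in E2A-KO LMPP, 6.21 and 6.40 in WT LMPP, and 6.88 and 6.76 in WT LSK FLT3-. Both WT LSK FLT3- arrays were the highest, and the LMPP genotypes overlapped. E2A-KO LMPP differed from WT LMPP by -0.29 (95% interval -0.66 to 0.08; limma, adjusted p = 0.464). In WT LMPP against WT LSK FLT3- the gene fell by 0.52 on the log2 scale (SE 0.16; limma, adjusted p = 0.0393). The median of 1061 genes of like level was -0.41, and after quantile normalization the difference was -0.11 with an adjusted p of 0.680 (limma), so the stage call held on the deposited scale only. The call also ended without WT LMPP replicate 1 (limma, adjusted p = 0.146), without either WT LSK FLT3- array (0.208 and 0.129), with the mean of both probe sets (0.229) and with all probe sets as the unit (0.0545). Against WT LSK FLT3-, Cdkn1b fell by 0.80 in E2A-KO LMPP (limma, adjusted p = 0.00588), beside a like-level median of -0.48. That call ended after quantile normalization (-0.38, adjusted p = 0.149) and without WT LSK FLT3- replicate 1 (-0.75, adjusted p = 0.0610). The second Cdkn1b probe set passed in no comparison; its levels ran between 3.54 and 4.41, near the array medians.

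Cdkn1c, the remaining Cip/Kip gene and no member of the set, encodes p57 and is known for its high level in quiescent stem cells. It read 4.03 and 3.97 in E2A-KO LMPP, 4.19 and 4.54 in WT LMPP, and 5.45 and 5.82 in WT LSK FLT3-. It fell by 1.27 on the log2 scale in WT LMPP against WT LSK FLT3- (limma, adjusted p = 0.00108) and kept that call in all 15 alternatives, quantile normalization included. E2A-KO LMPP differed from WT LMPP by -0.37 (limma, adjusted p = 0.374). Of the Cip/Kip genes it had the largest difference between the stages.

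Cdkn2a and Cdkn2b, neighbouring genes known for their rise with age and stress, lay below the array median on all 6 arrays. Cdkn2a encodes both p16Ink4a and p19Arf, and the sources used here do not say which transcript its probe set reads. It read 3.27 and 3.33 in E2A-KO LMPP, 3.15 and 3.49 in WT LMPP, and 2.80 and 3.03 in WT LSK FLT3-. All LMPP arrays lay above both WT LSK FLT3- arrays. The stage difference was 0.40 (95% interval 0.05 to 0.76; limma, adjusted p = 0.0755), with a like-level median of 0.20 and a value of 0.26 after quantile normalization (adjusted p = 0.308). Leaving out WT LMPP replicate 1 took it past the threshold (0.57, adjusted p = 0.0372). The genotype difference was -0.02 (95% interval -0.38 to 0.33; limma, adjusted p = 0.964) and changed sign without WT LMPP replicate 2 (0.14).

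Cdkn2b, which encodes p15, read 3.95 and 3.95 in E2A-KO LMPP, 3.96 and 3.77 in WT LMPP, and 3.32 and 3.34 in WT LSK FLT3-. All LMPP arrays lay above both WT LSK FLT3- arrays, with a smallest gap of 0.43 for WT LMPP. It rose by 0.53 in WT LMPP against WT LSK FLT3- (SE 0.13; limma, adjusted p = 0.0143), beside a like-level median of 0.21 over 2115 genes, of which 17.0% were called higher. After quantile normalization the difference was 0.39 (adjusted p = 0.0726) and after cyclic loess 0.36 (adjusted p = 0.0805), so the call ended. It ended as well without WT LMPP replicate 1 (0.44, adjusted p = 0.0598) and without either WT LSK FLT3- array (0.101 and 0.0945, limma adjusted p). E2A-KO LMPP exceeded WT LSK FLT3- by 0.62 (limma, adjusted p = 0.00699), a call that remained after quantile normalization (0.45, adjusted p = 0.0434) and ended after cyclic loess (0.41, adjusted p = 0.0549) and without either WT LSK FLT3- array (0.0629 and 0.0579). The genotypes differed by 0.08 (95% interval -0.21 to 0.38; limma, adjusted p = 0.825).

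Cdkn2c, which encodes p18, the Ink4 inhibitor known for restraining stem cell self-renewal in mouse, read 7.26 and 7.61 in E2A-KO LMPP, 7.69 and 7.69 in WT LMPP, and 7.70 and 7.69 in WT LSK FLT3-. The wild-type arrays all read 7.69 or 7.70, and the E2A-KO arrays lay below them and apart from each other. The genotype difference was -0.25 (95% interval -0.59 to 0.08; limma, adjusted p = 0.476). The stage difference was -0.01 (95% interval -0.34 to 0.33; limma, adjusted p = 0.971), where 967 genes of like level had a median of -0.38. After quantile normalization it was 0.36 (95% interval 0.02 to 0.69; limma, adjusted p = 0.130), with the opposite sign. The sign of the stage difference of Cdkn2c thus depended on the scale.

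Cdkn2d, which encodes p19Ink4d, read 5.11 and 4.65 in E2A-KO LMPP, 4.93 and 4.98 in WT LMPP, and 5.30 and 5.58 in WT LSK FLT3-. Both WT LSK FLT3- arrays were the highest, and the E2A-KO arrays spanned the WT LMPP arrays. The genotypes differed by -0.08 (95% interval -0.48 to 0.32; limma, adjusted p = 0.881), and without E2A-KO replicate 2 the difference was 0.15. The stage difference was -0.48 (limma, adjusted p = 0.0652) with a like-level median of -0.11, and it was -0.30 after quantile normalization (adjusted p = 0.291). Cdkn2d fell by 0.56 in E2A-KO LMPP against WT LSK FLT3- (limma, adjusted p = 0.0357). That call ended after quantile normalization (-0.41, adjusted p = 0.159), without E2A-KO LMPP replicate 2 (-0.33, adjusted p = 0.185) and without either WT LSK FLT3- array (-0.70 and -0.42, adjusted p = 0.0758 and 0.236).

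Among the pocket proteins, Rbl2 had the largest difference between WT LMPP and WT LSK FLT3- of the 9 genes on the deposited scale. After quantile normalization and cyclic loess Cdkn1a had it, by the brighter of its 2 probe sets. Rbl2 alone of the genes called there on the deposited scale kept its call in all 15 alternatives run. Rbl2, which encodes p130, the pocket protein most abundant in quiescent cells, read 6.78 and 6.80 in E2A-KO LMPP, 6.76 and 7.01 in WT LMPP, and 7.77 and 7.77 in WT LSK FLT3-. All LMPP arrays lay below both WT LSK FLT3- arrays, with a smallest gap of 0.76, and the genotypes overlapped. Rbl2 fell by 0.88 on the log2 scale in WT LMPP against WT LSK FLT3- (SE 0.14, 95% interval -1.19 to -0.58; limma, adjusted p = 0.00186), a level 1.85-fold lower. E2A-KO LMPP fell by 0.98 against WT LSK FLT3- (95% interval -1.29 to -0.68; limma, adjusted p = 0.00105).

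The like-level median was -0.41 over 1022 genes in WT LMPP against WT LSK FLT3-, so part of the Rbl2 difference was shared with genes of its level. After quantile normalization Rbl2 read 6.96 and 6.96 in E2A-KO LMPP, 6.90 and 7.11 in WT LMPP, and 7.51 and 7.51 in WT LSK FLT3-. The stage difference was then -0.51 (95% interval -0.81 to -0.21; limma, adjusted p = 0.0298), a level 1.42-fold lower in WT LMPP. Over the alternatives adjusted p ran from 0.000157 to 0.0298 for WT LMPP and from 5.45e-05 to 0.0213 for E2A-KO LMPP (limma). Its second probe set read 3.52 and 3.79 in E2A-KO LMPP, 3.96 and 3.70 in WT LMPP, and 4.54 and 4.73 in WT LSK FLT3-. This dimmer probe set moved the same way, by -0.81 for WT LMPP and -0.98 for E2A-KO LMPP (limma over all probe sets, adjusted p = 0.00839 and 0.00282), and both calls remained after quantile normalization (0.0123 and 0.00382). Between the genotypes Rbl2 differed by -0.10 (95% interval -0.41 to 0.21; limma, adjusted p = 0.793).

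Rb1, which encodes RB, read 6.75 and 6.70 in E2A-KO LMPP, 6.87 and 7.18 in WT LMPP, and 7.52 and 7.32 in WT LSK FLT3-. The 3 groups did not overlap, with E2A-KO LMPP lowest and WT LSK FLT3- highest. Neighbouring groups in that order did not pass the test: the genotypes differed by -0.30 (95% interval -0.64 to 0.04; limma, adjusted p = 0.404) and the stages by -0.40 (95% interval -0.74 to -0.06; limma, adjusted p = 0.0707), the like-level median being -0.42. After quantile normalization the stage difference was 0.00 (95% interval -0.33 to 0.33; limma, adjusted p = 0.998). E2A-KO LMPP against WT LSK FLT3- fell by 0.70 (limma, adjusted p = 0.00760), beside a like-level median of -0.48, and the call ended after quantile normalization (-0.24, adjusted p = 0.285) and without WT LSK FLT3- replicate 1 (-0.60, adjusted p = 0.0815). The second Rb1 probe set lay at 2.44 to 2.87, below every array median, and passed in no comparison.

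Rbl1, which encodes p107, the pocket protein known to accumulate in cycling cells, read 9.50 and 9.59 in E2A-KO LMPP, 9.46 and 9.52 in WT LMPP, and 9.34 and 9.78 in WT LSK FLT3-. The groups overlapped in every comparison. The genotype difference was 0.06 (95% interval -0.31 to 0.42; limma, adjusted p = 0.913) and the stage difference -0.08 (95% interval -0.44 to 0.29; limma, adjusted p = 0.742), which was 0.18 after quantile normalization, the like-level median being -0.28. Of its other 3 probe sets, 1 gave another picture: it read 5.01 and 4.95 in E2A-KO LMPP, 4.83 and 4.78 in WT LMPP, and 5.43 and 5.88 in WT LSK FLT3-. That probe set fell by 0.85 in WT LMPP against WT LSK FLT3- (limma over all probe sets, adjusted p = 0.00752; after quantile normalization -0.66, adjusted p = 0.0266). The same probe set fell by 0.67 in E2A-KO LMPP against WT LSK FLT3- (limma, adjusted p = 0.0168; after quantile normalization -0.49, adjusted p = 0.0708). The sources used here do not say which transcripts either probe set reads. The other 2 lay between 2.90 and 3.98, below the array medians, and passed in no comparison.

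The windows before the Rbl2 and Rbl1 starts are shown because both probe sets of Rbl2 passed between the stages and the brightest of Rbl1 did not. Letters searched on both strands were the E2F motifs TTTCCCGC, TTTGGCGC, TTTCGCGC and TTTGCCGC, the cell cycle homology region (CHR) letters TTTGAA and TTCGAA that DREAM reads, the FOXO motif GTAAACA, and the E boxes above. The Rbl1 window, chr2:157204535-157204784 on the minus strand, holds TTTCGCGC with its first base 18 bases before the start and CAGCTG at 183 bases. The Rbl2 window, chr8:91069807-91070056 on the plus strand, holds TTCAAA, the reverse complement of TTTGAA, at 201 bases and no E2F motif searched. Capitals mark these matches. E2F letters are in 1.9% and CHR letters in 17.1% of 32851 windows of this length.
Rbl2: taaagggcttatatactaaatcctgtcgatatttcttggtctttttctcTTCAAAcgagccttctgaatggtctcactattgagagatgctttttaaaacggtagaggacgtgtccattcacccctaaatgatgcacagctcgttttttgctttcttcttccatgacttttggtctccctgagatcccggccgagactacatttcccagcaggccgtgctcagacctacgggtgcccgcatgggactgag
Rbl1: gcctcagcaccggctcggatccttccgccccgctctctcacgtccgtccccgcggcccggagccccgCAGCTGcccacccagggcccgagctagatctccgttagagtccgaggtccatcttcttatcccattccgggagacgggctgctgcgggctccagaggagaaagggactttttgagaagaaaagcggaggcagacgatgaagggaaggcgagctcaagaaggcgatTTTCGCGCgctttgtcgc

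The 11 windows searched on GRCm38.p6 belong to 8 members, all but Rb1. E2F letters were found for Rbl1 and Cdkn2a and CHR letters for Rbl2 and Cdkn2b. FOXO letters were found for 0 of 8, where 3.2% of all windows hold them. The missing matches say only that these letters are not in these windows.

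**Figure D2:**
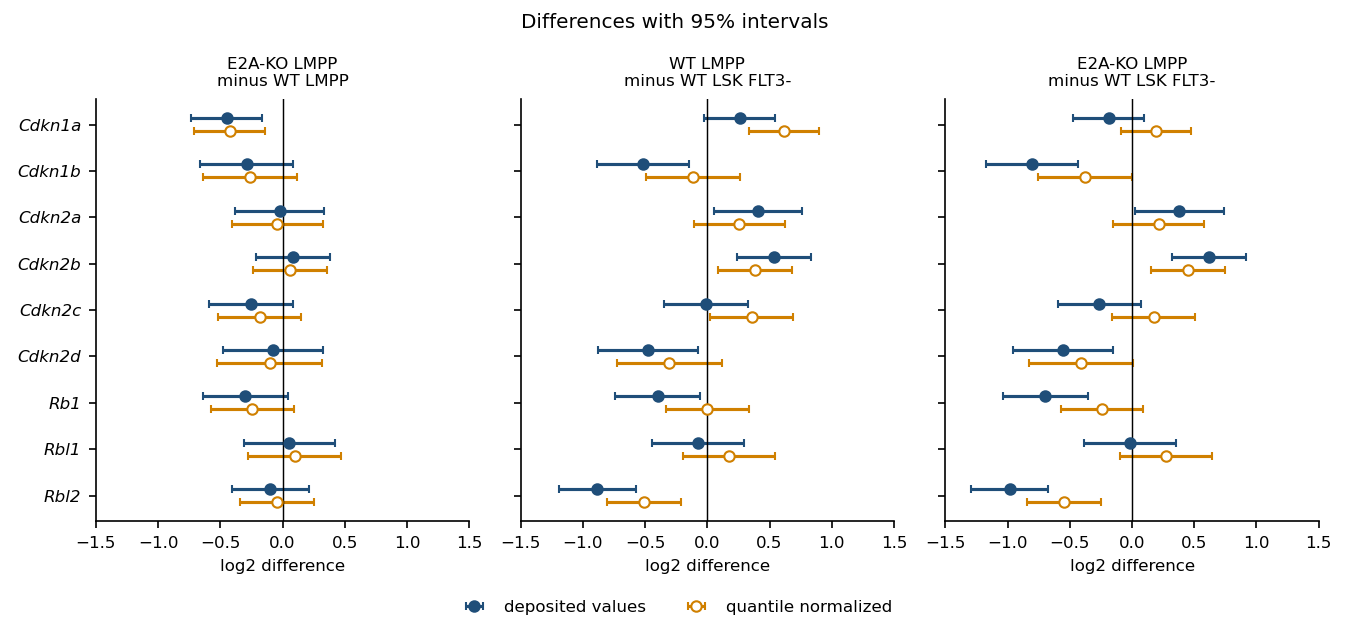
Log2 difference of each gene with its 95% interval from limma, for E2A-KO LMPP minus WT LMPP, WT LMPP minus WT LSK FLT3- and E2A-KO LMPP minus WT LSK FLT3-, with 2 arrays per group. Filled points are deposited values and open points quantile normalized values; Rbl2 stays below 0 on both scales in both comparisons with WT LSK FLT3-, and Cdkn1a in WT LMPP minus WT LSK FLT3- stands at 0.26 on deposited values and at 0.62 after quantile normalization.

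Counted over the set, 3 of 9 genes passed in WT LMPP against WT LSK FLT3- (Rbl2 and Cdkn1b lower, Cdkn2b higher), where 34.1% of all genes passed, 10.4% higher and 23.7% lower. Of E2A-KO LMPP against WT LSK FLT3-, 5 of 9 passed (Rbl2, Cdkn1b, Rb1 and Cdkn2d lower, Cdkn2b higher), where 37.5% of all genes passed, 11.0% higher and 26.5% lower. At an unadjusted p under 0.05 it was 6 of 9 in each, where 45.2% and 47.6% of all genes stood. The arrays did not overlap for 8 of 9 in each, against 71.8% and 74.0% of all genes. For WT LMPP 3 were higher and 5 lower, where 32.4% and 39.3% of all genes were, and for E2A-KO LMPP 2 were higher and 6 lower, where 32.9% and 41.1% were. With 9 genes these shares lie near the background. After quantile normalization 9.10% of all genes were called higher and 10.1% lower in WT LMPP against WT LSK FLT3-. In E2A-KO LMPP against WT LSK FLT3- these shares were 8.76% and 11.1%. On that scale 2 of 9 members passed in each comparison with WT LSK FLT3-. They were Rbl2 lower and Cdkn1a higher in WT LMPP, and Rbl2 lower and Cdkn2b higher in E2A-KO LMPP. The comparisons share arrays, so their calls are not independent of each other.

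**Figure D3:**
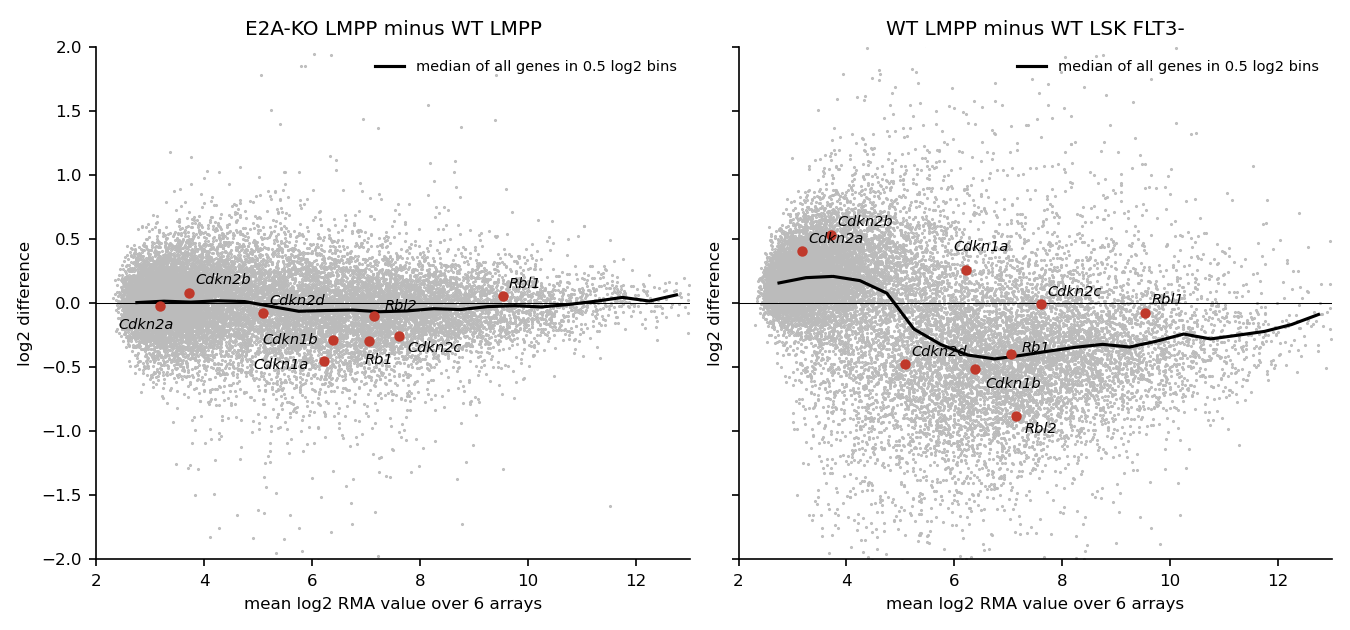
Log2 difference of all 18194 genes (grey) against their mean log2 RMA value over the 6 arrays, for E2A-KO LMPP minus WT LMPP and WT LMPP minus WT LSK FLT3-, with the 9 genes in red; the black line is the median of all genes in bins of 0.5 log2, and genes beyond 2 log2 in either direction are not drawn. The line stays near 0 between the genotypes, whereas between the stages it bends with the level, and Rbl2 lies below it and Cdkn1a above it.

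The levels of Rbl2, Cdkn1b and Rb1, the members with the widest range of group means, were set against every gene by the root mean square difference of centred profiles over the 6 arrays. Closest to Rbl2 were Tcf12 (0.0230 log2), which encodes an E protein related to E2A, Klf10 (0.0320) and Itpripl2 (0.0351). Tcf12 read 9.03 and 9.06 in E2A-KO LMPP, 9.06 and 9.32 in WT LMPP, and 10.02 and 10.03 in WT LSK FLT3-. Closest to Cdkn1b were Vgll4 (0.0246), Dffb (0.0482) and Plpp2 (0.0487). Closest to Rb1 were Tor2a (0.0445), Xpot (0.0445) and Tnip1 (0.0468). The profiles were compared on the deposited scale only. Between the stages Cdkn1b differed by -0.52 on that scale and by -0.11 after quantile normalization, and Rb1 by -0.40 and -0.0005. With 6 arrays and 18194 genes such lists are descriptions.

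The genes these proteins act on and answer to were read from 7 lists. Between the genotypes 1 gene of all lists passed, where 1.37% of all genes passed. Ccnd1, the cyclin D1 gene, whose product activates CDK4 and CDK6, read 6.30 and 5.91 in E2A-KO LMPP, against 7.13 and 7.19 in WT LMPP. It fell by 1.05 on the log2 scale (SE 0.16; limma, adjusted p = 0.0164). Both E2A-KO arrays lay below both WT LMPP arrays. The call ended in the fit on only the 4 arrays of the comparison (adjusted p = 0.0684), without WT LMPP replicate 1 or 2 (0.0604 and 0.0664), without E2A-KO replicate 2 (0.0817) and without either WT LSK FLT3- array (0.0684), the direction being the same each time. The other 8 of 9 G1 and S phase cyclins and kinases did not pass. The largest difference among them was 0.60 for Cdk6 (limma, adjusted p = 0.0766). In WT LMPP against WT LSK FLT3- Cdk6 differed by -0.11 (limma, adjusted p = 0.551).

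None of 9 other negative regulators of the cycle, 16 E2F, DP and MuvB partners, 9 regulators of the inhibitors, 13 p53 targets, 16 replication genes and 14 mitosis genes passed between the genotypes by limma. Of all genes 1.37% passed there. The largest differences were -0.88 for Btg2, an antiproliferative gene (adjusted p = 0.0716), -0.71 for Trp53inp1, a p53 target (0.0893), -0.61 for Foxo3 (0.123) and -0.60 for Lin54, the MuvB subunit that binds CHR letters (0.103). Trp53inp1 passed in 3 of 15 alternatives and Btg2 in 3. The other negative regulators had a median of -0.36, with 7 of 9 below 0. The replication genes had a median of 0.15 with 2 of 16 below 0, and the mitosis genes -0.15 with 13 of 14 below 0, against -0.02 over all genes. Gins1 and Tk1 differed by 0.50 and 0.45 (adjusted p = 0.153 and 0.150) and Cenpa and Aurkb by -0.42 and -0.36 (0.220 and 0.228).

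Of 14 mitosis genes 6 rose in WT LMPP against WT LSK FLT3- and 0 fell, among them Plk1 (0.63), Mki67 (0.61), Birc5 (0.56) and Cenpa (0.51), with limma adjusted p of 0.00904, 0.00648, 0.0219 and 0.0243. Mki67, the Ki-67 proliferation marker, read 11.91 and 11.96 in WT LMPP, against 11.32 and 11.32 in WT LSK FLT3-. Over all genes, 10.4% were called higher and 23.7% lower between these stages, and 9.10% and 10.1% after quantile normalization. E2A-KO LMPP had 11.0% of all genes higher and 26.5% lower than WT LSK FLT3-, and 8.76% and 11.1% after quantile normalization. After quantile normalization 10 of 14 mitosis genes passed between the stages, all higher, and with median centring 3 passed. The count was 0 of 14 without WT LSK FLT3- replicate 1 and without replicate 2, with 1 array left in that group. For E2A-KO LMPP 4 of 14 passed, all higher, 10 after quantile normalization and 0 without either WT LSK FLT3- array.

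Of the G1 and S phase cyclins and kinases, 4 of 9 passed between the stages. Of all genes 34.1% passed there, 10.4% higher and 23.7% lower. After quantile normalization 9.10% of all genes were higher and 10.1% lower. Ccne2, a cyclin E gene, fell by 1.43 (limma, adjusted p = 0.000396) and kept its call in all 15 alternatives; Ccnd1 rose by 0.72 (0.00963) and Ccna2 by 0.53 (0.0126), and both calls ended without WT LSK FLT3- replicate 1 (0.0901 and 0.0882) and without replicate 2 (0.0525 and 0.0945). Ccnd3 fell by 0.54 (0.0167), a call that ended after quantile normalization (-0.20, adjusted p = 0.365) and without either WT LSK FLT3- array (0.0767 and 0.133), and the mean of its probe sets had the other sign (0.12). Of the E2F, DP and MuvB partners 9 of 16 passed, 3 higher and 6 lower, and after quantile normalization 5, 3 higher and 2 lower. E2f5, which pairs with p130, rose by 1.63 (0.000161), although the mean of all its probe sets gave 0.05 (adjusted p = 0.83), and Lin54 fell by 1.00 (0.00158) and E2f2 rose by 0.83 (0.00227), both in all 15 alternatives. E2f3 fell by 0.73 (0.00577) on the deposited scale and did not pass after quantile normalization (-0.40, adjusted p = 0.0767).

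Regulators of the inhibitor genes passed for 6 of 9 between the stages, with 5 lower. After quantile normalization 1 was higher and 1 lower. Of all genes 34.1% passed between the stages, 10.4% higher and 23.7% lower. After quantile normalization 9.10% were higher and 10.1% lower. Bmi1, the Polycomb gene known to silence Cdkn2a, read 8.99 and 8.98 in E2A-KO LMPP, 8.87 and 9.14 in WT LMPP, and 9.82 and 9.81 in WT LSK FLT3-. It fell by 0.81 in WT LMPP against WT LSK FLT3- (limma, adjusted p = 0.00306) and by 0.83 in E2A-KO LMPP against WT LSK FLT3- (0.00247), in all 15 alternatives of each. Foxo1, a FOXO factor known to activate Cdkn1b, fell by 0.79 (0.00391), Foxo4 by 0.67 (0.0172) and Zbtb17, the MIZ1 gene, by 0.62 (0.00778); these 3 did not pass after quantile normalization (adjusted p = 0.0584, 0.193 and 0.294). Of 13 p53 targets 4 passed, all lower. They were Mdm2 at -0.57, Zmat3 at -0.53, Eda2r at -0.52 and Ccng1 at -0.52 (limma, adjusted p = 0.0194, 0.0424, 0.0394 and 0.0172). After quantile normalization 1 passed, Eda2r, whose deposited means of 3.01 in WT LMPP and 3.53 in WT LSK FLT3- lay below the array medians. Each of these 4 calls ended without WT LSK FLT3- replicate 2 (-0.43, -0.69, -0.39 and -0.53). Of 16 replication genes 8 passed, 7 of them lower, with Pola1 at -0.89, Gins1 at -0.79, Mcm2 at -0.75 and Cdc6 at -0.64, of which the last 3 did not pass without WT LSK FLT3- replicate 1 (0.0557, 0.0571 and 0.0799). After quantile normalization it was 2 higher and 2 lower. Of 9 other negative regulators 5 passed: Cdkn1c, Tob1 (-1.11) and Btg1 (-0.63) lower, and Btg2 (0.91) and Cdkn3 (0.53) higher; Cdkn3 lies outside the naming rule and was chosen after its values were seen. Tob1 kept its call in all 15 alternatives. Btg1 did not pass after quantile normalization (-0.35, limma, adjusted p = 0.204) or cyclic loess (-0.29, 0.280). With the mean of its probe sets it did not pass either (-0.42, limma, adjusted p = 0.0636). The Btg1 call also ended without either WT LSK FLT3- array (-0.64 and -0.63) and without WT LMPP replicate 1 (-0.55). The Btg2 call ended without WT LSK FLT3- replicate 1 (0.83).

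Set against WT LSK FLT3-, E2A-KO LMPP had 2 higher and 2 lower cyclins and kinases, 3 higher and 4 lower E2F, DP and MuvB partners, 1 higher and 6 lower regulators, 4 lower p53 targets, 2 higher and 3 lower replication genes, and 4 lower other negative regulators, where 11.0% of all genes were higher and 26.5% lower. After quantile normalization 8.76% of all genes were higher and 11.1% lower. On that scale 3 cyclins and kinases were higher and 2 lower, and 4 E2F, DP and MuvB partners were higher and 2 lower. The lists also had 1 higher and 2 lower regulators and 3 lower p53 targets. Replication genes were 2 higher and 0 lower, and other negative regulators 1 higher and 2 lower. E2f5 rose by 1.64 (limma, adjusted p = 0.000132), a call that ended with the mean of all its probe sets (-0.03, adjusted p = 0.899). Cdkn1c fell by 1.63 (limma, adjusted p = 0.0003) in all 15 alternatives. Ccne2 fell by 1.65, Lin54 by 1.60, Foxo1 by 1.18, Btg1 by 1.14 and Trp53inp1 by 0.97 (limma, adjusted p = 0.000171, 0.000161, 0.000546, 0.00176 and 0.00263), each in all 15 alternatives. Cdk6, a kinase bound by Ink4 proteins, rose by 0.49 (0.0201) and its call ended with median centring (adjusted p = 0.0651), with the mean of its probe sets (0.0895), without E2A-KO LMPP replicate 1 (0.084) and without either WT LSK FLT3- array (0.122 and 0.107).

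**Figure D4:**
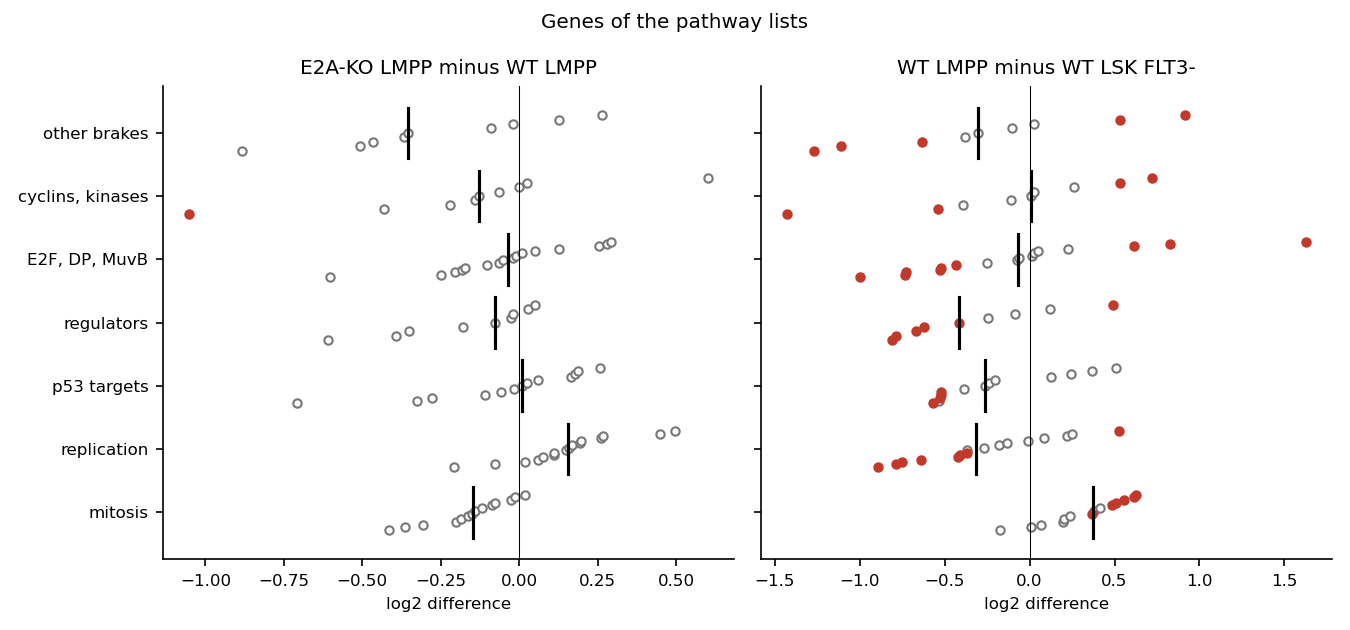
Log2 difference of each measured gene of the 7 pathway lists, for E2A-KO LMPP minus WT LMPP and WT LMPP minus WT LSK FLT3-, on deposited values; filled red points passed limma's adjusted p under 0.05, open points did not, and black bars are list medians. Between the genotypes Ccnd1 is the filled point, and between the stages the mitosis genes lie to the right of 0 except 1.

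Marker sums of other cell types differed with the stage as well. The summed level of 5 megakaryocyte markers was 7.17 to 7.18 (log2) in E2A-KO LMPP, 6.76 to 6.83 in WT LMPP and 8.80 to 8.88 in WT LSK FLT3-. Of these 5 genes 4 fell in WT LMPP against WT LSK FLT3- by limma, where 23.7% of all genes fell and 10.4% rose. The sum of 5 mast cell markers was 6.86 to 6.88 in E2A-KO LMPP, 6.58 to 6.70 in WT LMPP and 8.27 to 8.28 in WT LSK FLT3-. The sum of 6 plasma cell markers was 9.84 to 9.85 in E2A-KO LMPP, 9.91 to 10.01 in WT LMPP and 11.43 to 11.46 in WT LSK FLT3-. Within that list Igha differed by -5.79 and Jchain by -4.77 in WT LMPP against WT LSK FLT3-, while Sdc1 differed by 1.54. These genes lie outside the naming rule and were chosen after their values were seen. All 3 sums were highest in WT LSK FLT3-, as was that of 4 erythroid markers, at 6.33 to 6.58 in E2A-KO LMPP, 6.39 to 6.43 in WT LMPP and 7.54 to 7.62 in WT LSK FLT3-. The single genes of these lists did not all follow the sums: in WT LMPP against WT LSK FLT3- 3 mast cell markers fell and 1 rose, 3 plasma cell markers fell and 1 rose, and 2 erythroid markers fell and 2 rose (limma). Markers of B cells, T cells, and stroma and endothelium summed to 6.23 to 7.18 on all arrays. Of the megakaryocyte and mast cell markers 0 lay below the array median in WT LSK FLT3-. The part of any of these cell types in the fall of Rbl2, Cdkn1b or Cdkn1c was not tested.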

How the data were processed

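Per the labels' protocols, RNA of sorted cells was amplified in a small-sample protocol and hybridized, 1 sample per array. The deposited intensity values are linear RMA values, as the submitters' processing notes name the method without its version; RMA corrects background, normalizes and summarises probe sets. The sources used here do not say if the arrays went through RMA together. The deposited intensities ran from 4.23 to 25594 and log2 was taken. No detection calls were used; precision is limited by how few arrays there are.

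Of 45101 probe sets 34958 had 1 symbol, 932 several and 9211 none. limma 3.58.1 in R 4.3.3 fitted 1 mean per group on all 6 arrays (3 residual and 5.80 prior degrees of freedom), two-sided, with a threshold of 0.05 on Benjamini-Hochberg adjusted p; intervals are 95% intervals from the moderated fit, and SDs are between 2 arrays. Other probe sets were tested and adjusted over all 45101. Groups came from the titles. The members, the pathway and marker lists and the promoter motifs were chosen with earlier results of these data known. Named genes were the 9 members, Cdkn1c, Tcf3, up to 4 genes per list with the largest difference past the threshold (up to 2 where none passed), and the 3 genes most like each of the 3 members with the widest range. Marker sums add linear values of the measured markers. Promoter sequences are RefSeq's on GRCm38.p6, cut to the 250 bases before the start.

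Alternatives were a replicate block, fitting only a comparison's 4 arrays, a filter on the dimmest 40% of genes, leaving out each array, the mean of all probe sets, quantile normalization, median centring, a variance trend with robust estimation, all probe sets as the unit and, added after the data were seen, cyclic loess. The fit was tested on simulated data. Deviations of same-numbered arrays correlated at 0.01, -0.01 and -0.04, so replicate numbers were not taken to pair samples. Figures used matplotlib 3.10.9 in Python 3.11.15.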

Additional observations from a re-analysis of the deposited data

How the results depend on the processing

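Of the member differences over all alternatives, 343 kept direction and side of the threshold, 26 lost their call, 12 gained one and 18 changed sign; the causes were not tested. In E2A-KO LMPP against WT LMPP 0 members passed under each of 15 alternatives. All genes called there were 250, 548 with a variance trend and robust estimation, 89 on the 4 arrays of the comparison and 89 to 164 with an array left out. In WT LMPP against WT LSK FLT3- the called members were 3 and were 5 with median centring and 1 to 4 with an array left out; all genes called were 6198 (1889 higher, 4309 lower), 3496 after quantile normalization (1656 and 1840), 3784 after cyclic loess (1713 and 2071), and 2370 to 6410 with an array left out, lowest without WT LSK FLT3- replicate 1 and 2449 without replicate 2. Leaving out the dimmest genes or median centring moved the split further to lower (1142 and 4453; 1161 and 5376). In E2A-KO LMPP against WT LSK FLT3- the called members were 5, 2 after quantile normalization, 1 after cyclic loess, and 1 to 5 with an array left out; all genes called were 6822 (2002 higher, 4820 lower), 3617 after quantile normalization (1593 and 2024), 3912 after cyclic loess (1653 and 2259), and 2944 to 7515 with an array left out, with splits of 1143 and 4957 without the dimmest genes and 1053 and 6148 after median centring. Between the genotypes 4 members changed sign with an array left out: Cdkn2a ranged from -0.19 to 0.14, with 0.00687 without E2A-KO LMPP replicate 1, Cdkn2b from -0.013 to 0.18, Cdkn2d from -0.31 to 0.15 and Rbl2 from -0.22 to 0.026. In WT LMPP against WT LSK FLT3- quantile normalization and cyclic loess turned Cdkn2c to 0.36 and 0.36 and Rbl1 to 0.18 and 0.22, and Rbl1 ranged from -0.29 to 0.14 with an array left out. In E2A-KO LMPP against WT LSK FLT3- they turned Cdkn1a to 0.19 and 0.18, Cdkn2c to 0.17 and 0.16 and Rbl1 to 0.27 and 0.31, and Rbl1 ranged from -0.24 to 0.20 with an array left out (0.02 without E2A-KO LMPP replicate 1). Rb1 and Cdkn2d gained calls in WT LMPP against WT LSK FLT3- with median centring (adjusted p = 0.0292 and 0.0294) and without the dimmest genes (0.0487 and 0.0490), where fewer genes were tested and Cdkn2a and Cdkn2b were left out.

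With the replicate number as a block, 0, 3 and 5 members and 200, 5914 and 6535 genes were called in the 3 comparisons in the order above. The numbers are not said to pair samples, and same-numbered arrays did not deviate together. With 2 arrays per group, a fit with 1 left out rests on a lone array assumed to vary like the other groups. Cdkn2a, Cdkn2b and 3 of the 7 other probe sets lay below the array median on all arrays, where signal over background limits what differences can show.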
